A study of Drosophila melanogaster with 19 samples.

Results

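The 9 genes described here encode the part of the *Drosophila* light response that runs from the eye G protein to the light-gated channels. They are the G protein subunits *Galphaq*, *Gbeta76C* and *Ggamma30A*, the phospholipase C *norpA*, the eye protein kinase C *inaC*, the scaffold *inaD*, and the TRP family channels *trp*, *trpl* and *Trpgamma*. They were taken by their FlyBase symbols, not by their values, and all 9 were found among the 13929 genes of the count tables. Nuclear RNA of outer photoreceptors was sequenced in 19 libraries that fall into 7 groups. D20, D30, D40, D50 and D60 are male flies aged 20, 30, 40, 50 or 60 days, with 3 libraries each, while LD, from a light:dark cycle, and DD, from constant darkness, have 2 libraries each. All 7 groups share 1 genotype, *w* with UAS-GFP-Msp300KASH in attP2, rh1-GAL4 and ry[506], so the nuclear tag was present in every group. The GAL4 line uses the promoter of *ninaE*, the Rhodopsin 1 gene, which is active in outer photoreceptors from late pupal stages on, so earlier stages were not sampled by this tag. Each library came from a separate pool of males, and a per-fly value cannot be had. The labels give a cycle of 12 hours of light and 12 hours of darkness at 25 °C, with collection 6 hours after lights on (ZT 6), for all groups including DD, while the study's text describes the DD flies as raised in constant darkness. The titles of the LD and DD samples begin with D101 and their count columns with D10, and no label states their age, so it is uncertain.

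In fly photoreceptors, light-activated rhodopsin switches on a heterotrimeric G protein of the Gq class. Its alpha subunit activates phospholipase C, which splits the membrane lipid PIP2, and the TRP and TRPL cation channels then open. INAD is a scaffold with PDZ domains that holds phospholipase C, the eye protein kinase C and TRP together in the rhabdomere, the stack of microvilli that catches light. TRP carries most of the calcium current, and the kinase shapes how fast the response ends. The beta and gamma subunits keep the alpha subunit at the membrane when it is inactive.

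Depth was lowest at D30 to D60, with 629634 to 864536 counts per library, against 4525799 to 5100377 at D20 and 16255052 to 19704692 in LD and DD. D30 to D60 lay in 1 count table and D20, LD and DD in the other, so levels (CPM, counts scaled to library size with TMM factors set within a table) are not on 1 tested scale across tables. The 5 genes listed as outer photoreceptor markers, *ninaE*, *Arr1*, *Arr2*, *ninaC* and *rdgA*, summed to 32848 CPM or more in every library. Whether those other than *ninaE* are particular to outer photoreceptors was not tested, so the sum may include RNA of inner photoreceptors. The 6 markers of R7 and R8, the inner photoreceptors, summed to 204 to 390.4 CPM at D20 to D60 but to 4114 to 5975 CPM in LD and DD. Within that list the inner rhodopsins *Rh3*, *Rh4*, *Rh5* and *Rh6* were detected in every group, and *sens* was at 0 in all LD and all D40 libraries. D30 replicate 1 stood apart, with *ninaE* at 20335 CPM against 8988 CPM in the lowest D30 library. LD replicate 1 had 6002 genes with a count, against 8259 in LD replicate 2. The DD libraries had 8635 and 7887 such genes, the D20 libraries 9970 to 11100 and the D30 to D60 libraries 8530 to 9827. Every LD and DD library thus had fewer such genes than every D20 library, at greater depth. The part of this in the comparisons with LD was not tested. D30 replicate 1 was the lowest D30 library for 5 of the 8 abundant cascade genes and the highest for the other 3. In D40 and D50 replicate 1 the 9 genes took 5.67% and 5.83% of counts, the highest shares of their groups. The p-values measure the spread between pools of flies.

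*Galphaq* had the fewest counts of the 8 abundant genes, with 242 to 465 per library at D30 to D60, and a count of 242 has a Poisson error of 6.43%. *norpA* had 7076 to 13968 counts in the same libraries. Reads copied by PCR are not separate molecules, so such errors cover counting alone. Together the 9 genes took 4.38% ± 0.316 (SD, n = 3) of all D30 counts and 5.52% ± 0.139 (SD, n = 3) of all D60 counts, with D40 (4.70% ± 0.845, SD, n = 3) and D50 (5.13% ± 0.663, SD, n = 3) between them. The share was 6.28% ± 0.0359 (SD, n = 3) at D20, 4.03% ± 0.102 (SD, n = 2) in LD and 4.49% ± 0.0793 (SD, n = 2) in DD. The D60 libraries (5.39 to 5.66%) all lay above the D30 libraries (4.06 to 4.69%). In bulk nuclear RNA, fewer outer photoreceptors and less RNA per photoreceptor cannot be told apart, and this holds for every level below.

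**Figure D1:**
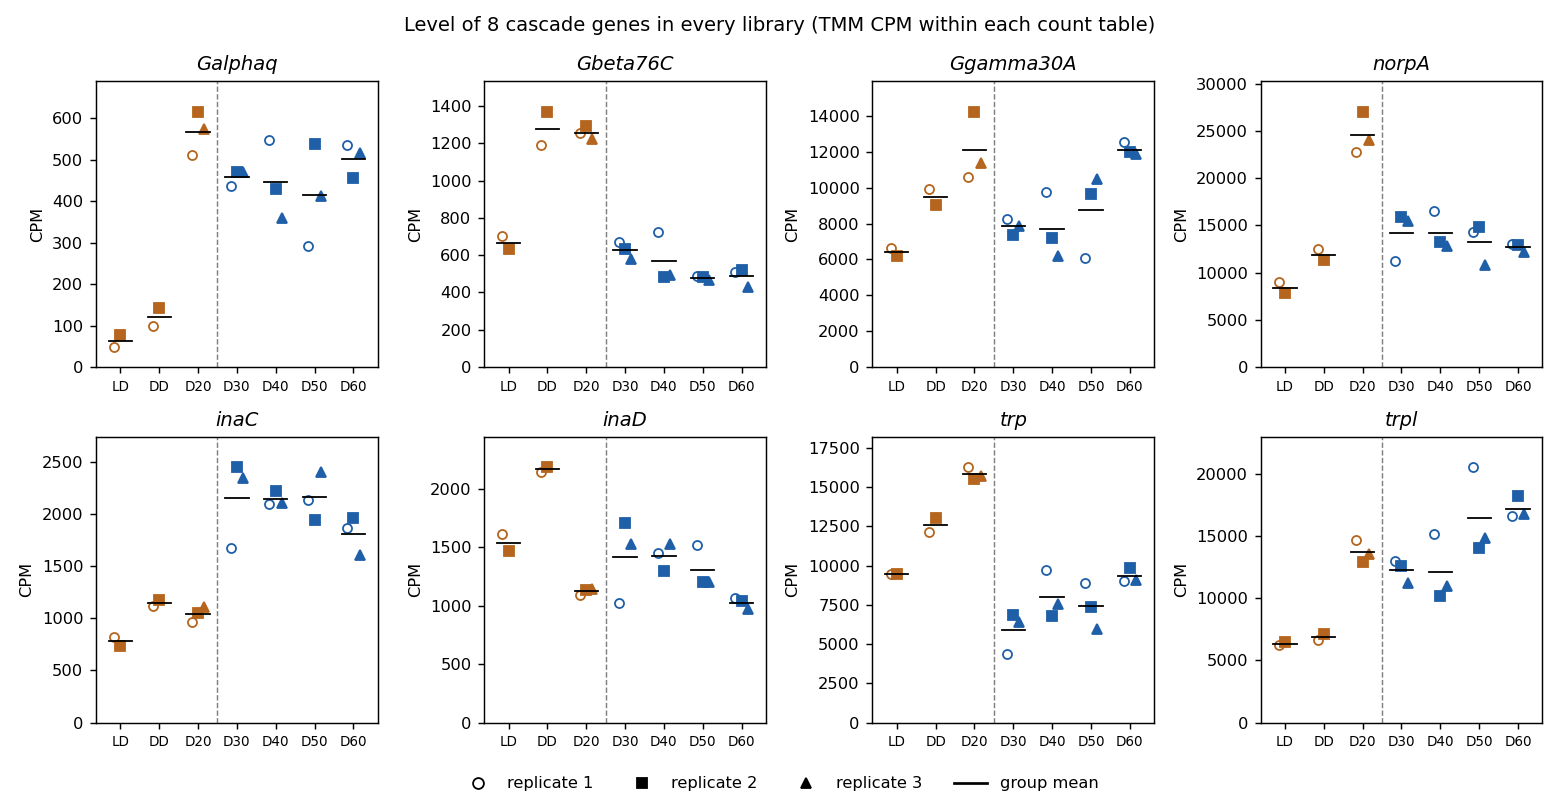
CPM (linear axis from 0) of 8 cascade genes in every library, with 1 panel per gene, groups along the x axis, 1 symbol per replicate and a bar for the group mean. The dashed line separates the 2 count tables, which were scaled separately. *Ggamma30A*, *trp* and *trpl* have all 3 D60 libraries above all 3 D30 libraries, and *Gbeta76C* has all 3 below.

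The channel genes *trp* and *trpl* and the phospholipase gene *norpA* had the highest levels per length. At D30, *trpl* stood at 3155 ± 231 CPM per kb of exon (SD, n = 3), *norpA* at 1711 ± 307, *trp* at 1415 ± 321, *inaC* at 916 ± 178, *Ggamma30A* at 625 ± 35.9, *inaD* at 609 ± 153, *Gbeta76C* at 428 ± 31.8 and *Galphaq* at 66.4 ± 2.82. The neighbours *norpA* and *trp* differed by less than either SD at D30, and so did *Ggamma30A* and *inaD*. At D20 and in LD and DD *trp* headed the order, and *trpl* did at D30, D40, D50 and D60, which lie in the other count table. *Galphaq* was the lowest of the 8 in every group. Its level per length is uncertain, because 3050 of its exon bases (44.1%) are also the whole exon sequence of *CG45086*, which had 0 counts in all 19 libraries.

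*Trpgamma*, another channel gene of the TRPC type (chromosome 2L, 16663454 to 16676701, minus strand, dm6 coordinates), was at the limit of detection. It had 8 counts in all 19 libraries together and at most 2 in any library. It had 0 counts in D30, D40, LD and DD. Over the 71006181 counts of LD and DD, a count of 0 allows a level of up to 0.0423 CPM, and over the 2145371 counts of D30 up to 1.40 CPM, from 3 counts. It did not pass the expression filter in any comparison and was not tested, so the counts of called genes below are out of 8.

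To follow the cascade through later life, each older group was set against D30, and a linear trend with age was tested in all 12 libraries of that table. At D60 the gamma subunit and both channels had risen and the beta subunit had fallen, so 4 of the 8 genes tested passed an adjusted p of 0.05 (edgeR quasi-likelihood test, Benjamini-Hochberg over all genes). Over all 4068 genes tested in that comparison, 23.6% passed, 12.9% higher and 10.7% lower. The 4 genes were also those whose D30 and D60 libraries did not overlap, a property of 39.8% of all genes tested (overlap was judged on CPM scaled in the libraries of the comparison). The median log2 change of the 8 genes was 9.39e-05, against -0.01 over all genes tested. At D40 and at D50 none of the 8 passed, where 0.0238% and 1.36% of all genes did. With no adjustment, 1 of the 8 had a p under 0.05 at D40 and 2 at D50, against 6.70% and 14.7% of all genes, and DESeq2 called 0 at both ages. The slope on age called 3 of the 8, all upward, where 18.9% of all genes passed and 10.6% passed upward. Later ages share the D30 libraries, so the comparisons are not independent of one another.

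The G protein subunits did not move as 1 block. *Ggamma30A* (2L, 9256563 to 9302494, plus strand) encodes the gamma subunit of the eye G protein. Its level was 8272, 7374 and 7877 CPM in the 3 D30 libraries and 12532, 11969 and 11885 CPM in the 3 D60 libraries. Every D60 library was above every D30 library. The log2 change was 0.64 ± 0.08 (SE; 95% interval 0.46 to 0.82), a 1.56-fold rise, with an edgeR adjusted p of 0.000208. At D50 its 3 libraries read 6090.2, 9659 and 10468 CPM, so replicate 1 lay below all D30 libraries and replicates 2 and 3 above them. The change at D50 was 0.18 ± 0.19 on the log2 scale (adjusted p = 0.719). Over the 4 ages *Ggamma30A* rose by 0.21 ± 0.06 per 10 days on the log2 scale (adjusted p = 0.0158).

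*Gbeta76C* (3L, 19687637 to 19689992, plus strand) encodes the beta subunit of the same trimer. It read 672, 633 and 579 CPM at D30 and 510.3, 522 and 431 CPM at D60, with no overlap. It fell by 0.35 ± 0.11 on the log2 scale (95% interval -0.59 to -0.11, edgeR adjusted p = 0.0410). The 3 D50 libraries, at 490.1, 483 and 467 CPM, also lay below D30 without overlap, as did 21.5% of all genes tested in one direction or the other, and the D50 change of -0.36 ± 0.14 did not pass (adjusted p = 0.253). The slope of -0.13 ± 0.05 per 10 days did not pass either (adjusted p = 0.0660). *Gbeta76C* lost its D60 call in 4 of the 6 fits that left out 1 library (D30 replicate 2 or any D60 library), with an adjusted p of at most 0.196. It also lost the call with DESeq2 (adjusted p = 0.0895), library size alone, at least 10 counts in every library and a fit shared by all ages, with an adjusted p of at most 0.125.

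*Galphaq* (2R, 12612740 to 12623197, plus strand) encodes the alpha subunit that activates phospholipase C. Its levels were 436, 469.8 and 470.4 CPM at D30 and 536, 456 and 515 CPM at D60. The groups overlapped. Its change of 0.14 ± 0.10 on the log2 scale (95% interval -0.08 to 0.37) did not pass (adjusted p = 0.370). At D50 the gene spread most between pools, from 291 to 539 CPM.

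The phospholipase, the kinase and the scaffold had lower D60 means, but none passed the edgeR test. *norpA* (X, 4322626 to 4365408, plus strand), the phospholipase C that the alpha subunit activates, read 11269, 15919 and 15403 CPM at D30 and 13024.5, 12899.7 and 12191 CPM at D60. The low D30 library was replicate 1, and the groups overlapped. Its log2 change was -0.14 ± 0.12 (95% interval -0.40 to 0.11, adjusted p = 0.427). *inaD* (2R, 22855688 to 22858794, minus strand), the scaffold, read 1019, 1706 and 1530.4 CPM at D30 and 1065, 1037 and 974 CPM at D60. D30 replicates 2 and 3 were above all D60 libraries and replicate 1 lay among them. The log2 change of *inaD* was -0.45 ± 0.15 (95% interval -0.79 to -0.12), with an edgeR adjusted p of 0.0536, and it passed with DESeq2 (adjusted p = 0.0436), with no filter and with a block for the replicate number. *inaC* (2R, 16898535 to 16901575, plus strand), the kinase, read 1675, 2447 and 2339 CPM at D30 and 1861, 1959.6 and 1606 CPM at D60, again with D30 replicate 1 the low one. Its change was -0.24 ± 0.14 on the log2 scale (adjusted p = 0.243).

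The channel genes *trp* and *trpl* both rose. *trp* (3R, 29914521 to 29920289, minus strand), the main light-gated calcium channel, read 4351, 6842 and 6419 CPM at D30 and 9007, 9872 and 9061 CPM at D60. All D60 libraries exceeded all D30 libraries, and the log2 change was 0.68 ± 0.14 (95% interval 0.38 to 0.99, edgeR adjusted p = 0.00439). Its D40 libraries read 9722, 6789 and 7546 CPM, and the D40 change of 0.46 ± 0.20 did not pass (adjusted p = 0.733). *trpl* (2R, 9753697 to 9765518, plus strand), the second channel of the light response, read 12996, 12583 and 11272 CPM at D30 and 16622, 18275 and 16803 CPM at D60. The groups did not overlap, and the log2 change was 0.50 ± 0.09 (95% interval 0.31 to 0.69, adjusted p = 0.00152). At D50 *trpl* read 20565, 14025 and 14893 CPM, all above D30, with replicate 1 far above replicates 2 and 3, and the D50 change of 0.45 ± 0.17 did not pass (adjusted p = 0.239). Per 10 days *trp* rose by 0.19 ± 0.06 (adjusted p = 0.0322) and *trpl* by 0.19 ± 0.05 (adjusted p = 0.0148) on the log2 scale.

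**Figure D2:**
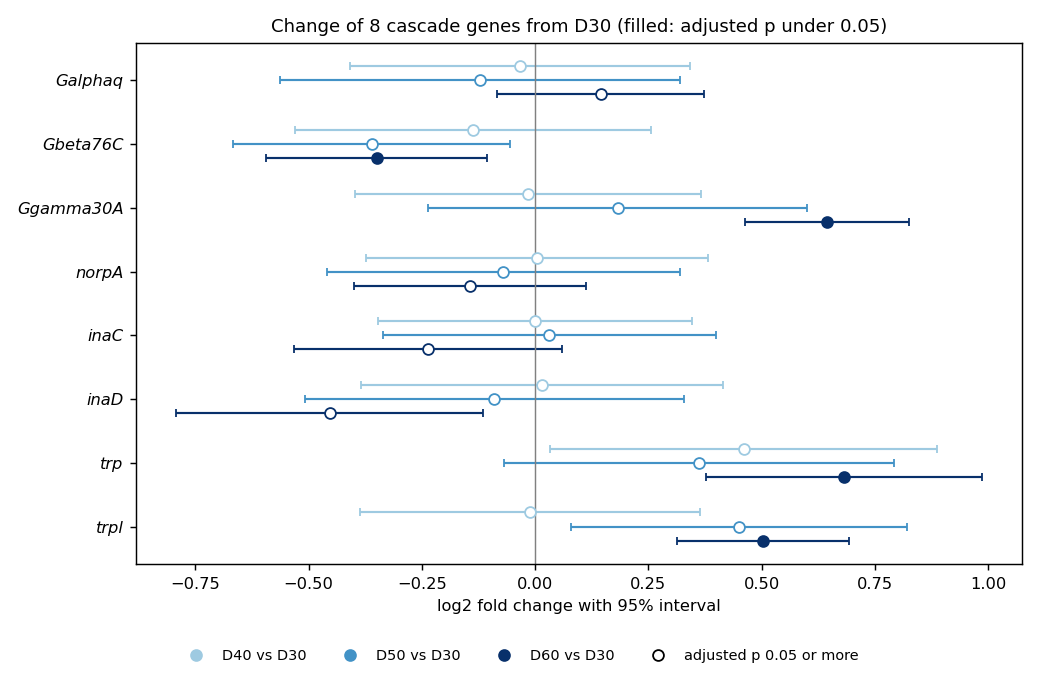
Log2 fold change from D30 (x axis) of 8 cascade genes (y axis) at D40, D50 and D60, with 95% intervals from edgeR, and filled points for an adjusted p under 0.05. Filled points occur at D60 for *Gbeta76C* (-0.35), *Ggamma30A* (0.64), *trp* (0.68) and *trpl* (0.50).

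The calls of *Ggamma30A*, *trp* and *trpl* at D60 were made in all 6 fits that left out 1 library. D30 replicate 1 bore on the other calls. Without it, 7 of the 8 genes passed, where 34.4% of all genes did, with *norpA* at -0.29 (adjusted p = 3.83e-07), *inaC* at -0.40 (adjusted p = 7.85e-09) and *inaD* at -0.65 (adjusted p = 5.13e-17) on the log2 scale in the same edgeR test. *trp* moved from 0.68 to 0.50 in that fit. The p-values of that fit leave out the spread between D30 replicate 1 and the other D30 pools. Without D30 replicate 2, or without any 1 D60 library, 3 of the 8 passed, where 14.3 to 19.2% of all genes did. The slope called 1 of the 8, *trpl*, when any 1 D60 library was left out, where 11.9 to 12.6% of all genes passed. In a fit that asked for any difference among the 4 ages, 1 of the 8 passed, *Ggamma30A*, where 11.8% of all genes did.

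**Figure D3:**
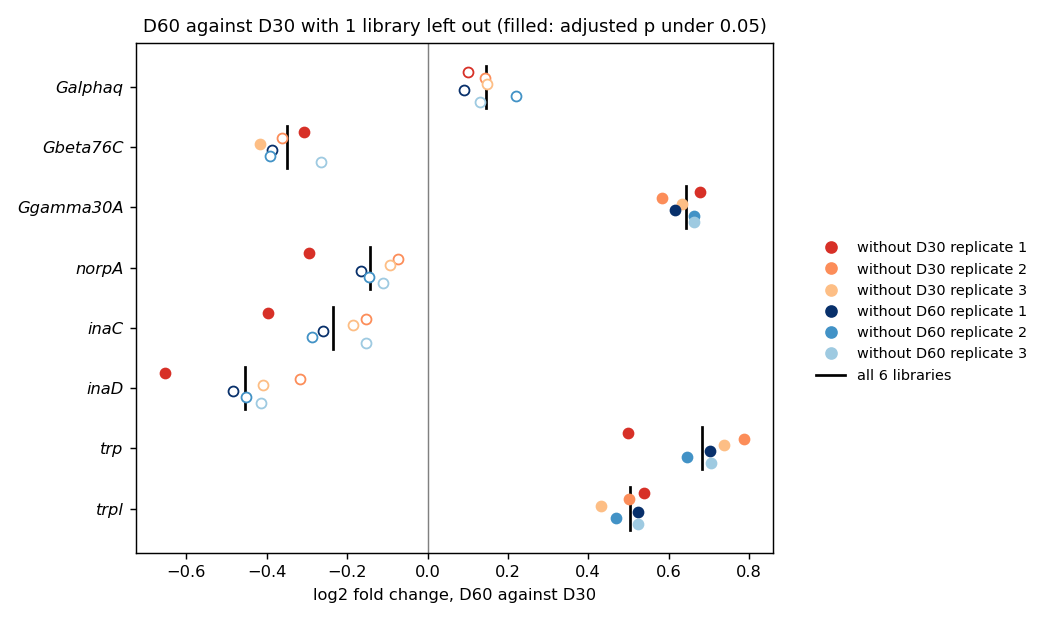
Log2 fold change of D60 against D30 (x axis) for 8 cascade genes (y axis) with 1 of the 6 libraries left out in turn, with the black bar for all 6 libraries and filled points for an adjusted p under 0.05. Leaving out D30 replicate 1 gives *inaD* -0.65, *inaC* -0.40 and *norpA* -0.29, while *Ggamma30A* stays between 0.58 and 0.68 in all 6 fits.

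Other transcripts moved between D30 and D60 as well. The 4 glia markers summed to 69.1 to 73.8 CPM at D30 and to 341 to 380.2 CPM at D60. None of the 4 was at 0 in all libraries of either age. *Eaat1*, a glutamate transporter gene, went from 44.0 ± 17.2 to 329 ± 20.7 CPM (SD, n = 3), while *repo*, the defining glial transcription factor, stood at 8.03 ± 1.44 and 7.03 ± 3.91 CPM. The clock gene *per* rose by 2.55 ± 0.17 and *tim* by 1.62 ± 0.12 on the log2 scale, and *Clk* fell by 0.63 ± 0.11. The part of these transcripts in the changes of the cascade genes was not tested.

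Ratios within a library do not depend on scaling and show unequal change of 2 genes. The log2 ratio of *trp* to *trpl* counts started from -1.09 ± 0.42 (SD, n = 3) at D30 and read -0.89 ± 0.0036 in the D60 libraries, while D40 had -0.59 ± 0.05 and D50 had -1.15 ± 0.20 (SD, n = 3). The 3 D60 libraries were close to one another and lay inside the D30 range of -1.58 to -0.81. The difference of 0.20 gave p = 1 in an exact two-sided permutation test, in which 3 against 3 libraries cannot go below 0.1. Without D30 replicate 1 the difference was -0.04, and it was 0.31 without D30 replicate 2 and 0.34 without D30 replicate 3. In the other table *trp* outnumbered *trpl*, with ratios of 0.21 ± 0.06 (SD, n = 3) at D20, 0.57 ± 0.04 (SD, n = 2) in LD and 0.87 ± 0.0094 (SD, n = 2) in DD. The log2 ratio of *Galphaq* to *Gbeta76C* was -0.45 ± 0.16 (SD, n = 3) at D30 and 0.04 ± 0.23 at D60. Every D60 library lay above every D30 library, and the difference of 0.49 gave p = 0.1, the smallest the exact permutation test allows. The same ratio was -1.15 ± 0.12 (SD, n = 3) at D20, -3.45 ± 0.60 (SD, n = 2) in LD and -3.43 ± 0.24 (SD, n = 2) in DD.

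**Figure D4:**
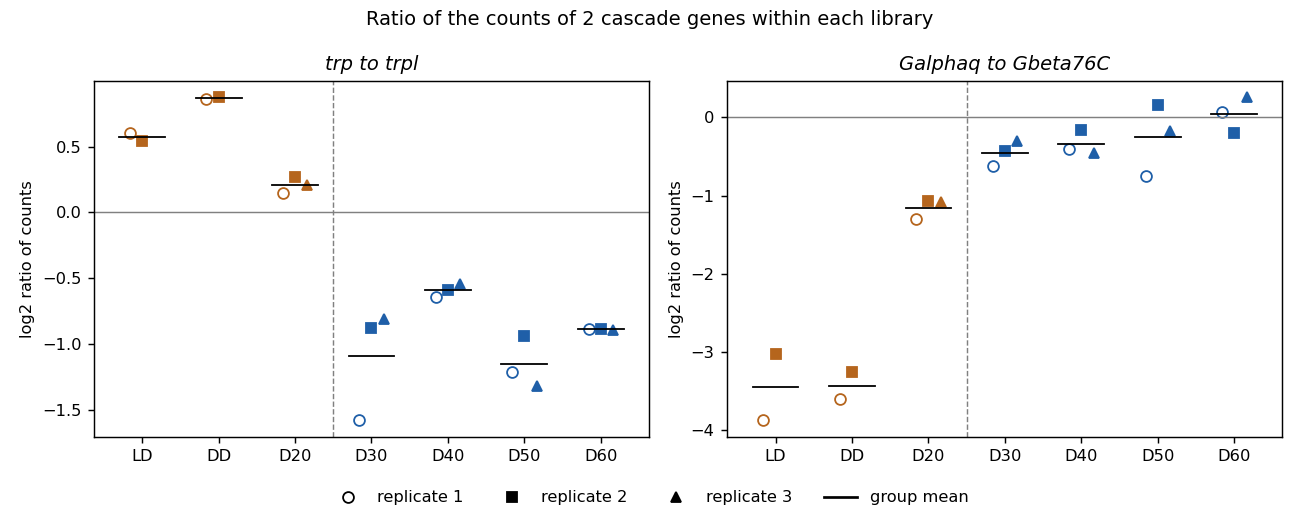
Log2 ratio of counts (y axis) of *trp* to *trpl* and of *Galphaq* to *Gbeta76C* in each library by group, with bars for group means and a dashed line between the count tables. The *trp* to *trpl* ratio is above 0 in all D20, LD and DD libraries and below 0 in all D30 to D60 libraries.

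Between D20 and D30, 4 of the cascade genes were lower at D30 and 1 was higher. These groups lie in different count tables and at different depths, so age cannot be told apart from the table. Of the 8 genes, 5 passed, where 21.2% of all 6380 genes tested passed (11.8% higher and 9.48% lower). Libraries did not overlap for 6 of the 8, against 37.0% of all genes. The median log2 change of the 8 was -0.36, against 0.01 over all genes tested. For this comparison both groups were scaled in 1 fit.

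*trp* showed the largest change of the 8. Its libraries stood at 16266, 15533 and 15714 CPM at D20, against 4351 to 6842 CPM at D30 in the other table. It fell by 1.33 ± 0.14 on the log2 scale (95% interval -1.64 to -1.02, edgeR adjusted p = 2.18e-05). *trpl* did not follow it. Its D20 libraries, at 14677, 12896 and 13574 CPM, overlapped those of D30 (11272 to 12996 CPM), and its log2 change was -0.06 ± 0.10 (95% interval -0.27 to 0.15, adjusted p = 0.735). Whether the changes of *trp* and *trpl* differ was not tested.

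Among the G protein genes, *Gbeta76C* fell by 0.90 ± 0.10 (adjusted p = 3.85e-05), from D20 libraries at 1257, 1296 and 1222 CPM. *Ggamma30A* fell by 0.52 ± 0.12 (adjusted p = 0.00591), from 10602, 14239 and 11391 CPM. *Galphaq*, at 512, 616 and 575 CPM at D20, changed by -0.20 ± 0.11 and did not pass (adjusted p = 0.233). The effector *norpA* fell by 0.69 ± 0.13 (adjusted p = 0.00192), with 22713, 27027 and 23997 CPM at D20. *inaC* went the other way. Its D20 libraries read 960.2, 1051 and 1103 CPM and its D30 libraries 1675 to 2447 CPM, a rise of 1.16 ± 0.14 (adjusted p = 5.43e-05). *inaD*, at 1092, 1135 and 1143 CPM at D20, changed by 0.44 ± 0.16 (adjusted p = 0.0597). All 5 calls were made without any 1 of the 6 libraries, and *inaD* passed as well without D30 replicate 1, at 0.59 (adjusted p = 7.45e-06). Beside these changes, *per* stood at 1312 ± 111 CPM at D20 and 62.4 ± 16.2 CPM at D30, *tim* at 14491 ± 395 and 319 ± 50.5 CPM, and *Clk* at 56.5 ± 3.69 and 571 ± 44.5 CPM (SD, n = 3). The labels give ZT 6 for both groups, and whether D20 was collected at the same clock time cannot be told from these files, which bears on every comparison with D20. Markers of other cells differed too. The 4 glia markers summed to 149.8 to 169 CPM at D20 and 69.1 to 73.8 CPM at D30, the 2 hemocyte markers to 66.9 to 75.7 and 22.3 to 26.5 CPM, the 5 brain neuron markers to 174 to 194 and 109.9 to 149 CPM, and the 3 fat body markers to 841 to 948 and 334 to 812 CPM. Within the glia list *Eaat1* was 1.56 lower at D30 on the log2 scale, while *repo* changed by 0.08 and *moody* by 1.43, both not called. Muscle markers leaned the other way, at 15.3 to 26.2 CPM at D20 and 25.5 to 85.3 CPM at D30. Of these *Mhc* was 1.42 higher at D30 (edgeR adjusted p = 0.00784). Cone and pigment cell sums overlapped. The R7 and R8 sums overlapped (260 to 286 and 259 to 335 CPM), although *Rh3* and *Rh4* were called higher at D30, by 1.08 and 1.35 on the log2 scale. The part of the clock transcripts and of these markers in the changes of the cascade genes was not tested.

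D20 and LD lie in the same count table. All 8 genes passed, 7 higher at D20 and *inaD* lower, where 23.9% of all 7769 genes tested passed (13.8% higher and 10.1% lower). None of the 8 overlapped between the groups, which held for 58.5% of all genes tested. The median of the 8 was 0.95, against 0.15 over all genes. With library size alone as the scaling, the median of all genes moved to -0.31, that of the 8 to 0.49, and 5 of the 8 passed. The share of higher calls among all calls moved from 57.8 to 35.5%.

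*Galphaq* differed most. It stood at 47.9 and 77.6 CPM in the LD libraries and at 512 to 616 CPM at D20. The log2 difference was 3.20 ± 0.27 (95% interval 2.51 to 3.90, edgeR adjusted p = 0.00326) or 9.21-fold. The counts of *Galphaq* may leave out reads from the 44.1% of its exon bases shared with *CG45086*. Whether that bears on the difference was not tested. *norpA* was 1.58 ± 0.17 higher at D20 (adjusted p = 0.00476), with LD libraries at 8998 and 7825 CPM. *trpl* was 1.14 ± 0.14 higher (adjusted p = 0.00688), with LD libraries at 6222 and 6501 CPM. *Gbeta76C* and *Ggamma30A* were each 0.95 higher, with adjusted p of 0.00376 and 0.0213. *trp* was 0.78 ± 0.13 higher (adjusted p = 0.0165), with both LD libraries close together at 9434 and 9445 CPM. The kinase gene *inaC* was 0.45 ± 0.11 higher (adjusted p = 0.0379), but at -0.0015 with library size alone. *inaD* was 0.42 lower at D20 (log2 difference -0.42 ± 0.09, adjusted p = 0.0257), with LD libraries at 1611 and 1469 CPM. Leaving out 1 D20 library left 2 (without replicate 3), 3 (without replicate 1) or 4 (without replicate 2) of the 8 genes called, and *Galphaq* and *Gbeta76C* were among them each time. These fits called 5.86 to 7.05% of all genes (482 to 588), against 23.9% (1854) with all libraries. Leaving out an LD library leaves 1 in that group, so only sizes of change are given. The median of all genes was 0.03 without LD replicate 1 and 0.64 without LD replicate 2. Over the 5 fits that left out 1 library, *Galphaq* ran from 2.95 to 3.65 and *inaD* from -0.44 to -0.31 on the log2 scale.

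Markers of inner photoreceptors and of most other cells listed were higher in LD than at D20. The glia sums overlapped, at 80.8 to 332 CPM in LD and 150 to 169 CPM at D20. The R7 and R8 markers summed to 4114 to 4473 CPM in LD and to 260 to 286 CPM at D20, the brain neuron markers to 588 to 922 and 174 to 194 CPM, and the cone and pigment cell markers to 295 to 396 and 43.2 to 53.7 CPM. The outer photoreceptor sums overlapped (48633 to 54791 CPM in LD and 48003 to 51220 CPM at D20), with *ninaE* and *Arr1* lower at D20 (-1.18 and -0.82), *ninaC* and *rdgA* higher (1.56 and 1.73) and *Arr2* at -0.43 (adjusted p = 0.0759). *per* was 4.51 ± 0.15 and *tim* 4.89 ± 0.18 higher at D20 on the log2 scale, and *Clk* 3.15 lower (log2 difference -3.15 ± 0.17). Age, library depth and cell makeup cannot be told apart here, since the age of LD is uncertain.

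To see how the cascade stood in flies without a light cycle, DD was compared with LD. All 8 genes had a higher mean in DD. The libraries did not overlap for 7 of the 8, against 42.2% of all genes tested in one direction or the other. None of the 8 passed, where 0.0250% of all 8003 genes did. With no adjustment 5 of the 8 had a p under 0.05, against 8.43% of all genes, and DESeq2 called 6, against 8.35% of all genes. The median log2 difference of the 8 was 0.51, against 0.06 over all genes. With library size alone it was 0.25, against -0.21. This is the comparison with the fewest libraries. Its common biological coefficient of variation was 1.17, against 0.800 for D20 and LD and 0.130 for D60 and D30.

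*Gbeta76C* came nearest to the threshold. Its LD libraries read 702 and 632 CPM and its DD libraries 1189.6 and 1371 CPM, so both DD libraries were well above both LD libraries. The log2 difference was 0.92 ± 0.17 (95% interval 0.51 to 1.34, edgeR adjusted p = 0.172). It passed with DESeq2 and in 4 other settings that took another filter, the replicate number as a block or all groups of the table in 1 fit. *Galphaq* went from 47.9 and 77.6 CPM to 98.3 and 143 CPM, a difference of 0.92 ± 0.36 (adjusted p = 0.570). *Ggamma30A*, with 6657 and 6175 CPM in LD and 9932 and 9048 CPM in DD, differed by 0.55 ± 0.20 (adjusted p = 0.535).

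The kinase gene *inaC* read 823 and 732 CPM in LD and 1118 and 1173 CPM in DD, a log2 difference of 0.54 ± 0.16 (adjusted p = 0.356). *inaD* read 1611 and 1469 CPM in LD and 2148 and 2186 CPM in DD, a difference of 0.47 ± 0.16 (adjusted p = 0.470). *norpA* differed by 0.48 ± 0.22 (adjusted p = 0.585), with DD libraries at 12519 and 11292 CPM. The 2 channels stood in order of size below these, *trp* at 0.39 ± 0.22 (12142 and 13019 CPM in DD) and *trpl* at 0.10 ± 0.20 (6684 and 7100.5 CPM in DD). The *trpl* libraries of LD, at 6222 and 6501 CPM, lay just below those of DD on this scale and overlapped them when scaled in the LD and DD libraries alone, and the 95% interval of its difference ran from -0.39 to 0.58. Without LD replicate 1, which had the fewest genes with a count, 5 of the 8 passed, where 6.35% of all genes did. Without LD replicate 2, 7 passed, where 25.5% of all genes did and the median of all genes moved to 0.67. Without either DD library none passed. *ninaE* was 1.30 ± 0.32 higher in DD (adjusted p = 0.289), *per* 2.78 ± 0.20 (adjusted p = 0.0439) and *tim* 2.10 ± 0.21 (adjusted p = 0.0668), and *Clk* differed by -0.46 ± 0.22 (adjusted p = 0.585). The outer photoreceptor markers summed to 101011 to 111187 CPM in DD and 48633 to 54791 CPM in LD. *ninaE* went from 29684 ± 3939 to 74052 ± 5513 CPM (SD, n = 2), while *Arr1* differed by -0.09 ± 0.24 and *Arr2* by 0.04 ± 0.26. *ninaC* was at 0.82 ± 0.19 and *rdgA* at 1.19 ± 0.23, and none of these 4 passed the test. The R7 and R8 markers summed to 5045 to 5975 CPM in DD and 4114 to 4473 CPM in LD. Among them *Rh3*, *Rh4*, *Rh5* and *Rh6* were 0.53 to 1.08 higher on the log2 scale and *pros* 0.71 lower, none called. The brain neuron markers summed to 335 to 430.2 CPM in DD and 588 to 922 CPM in LD. Cone and pigment cell, muscle, fat body and hemocyte sums were also lower in DD, and glia sums overlapped. The part of cell makeup in these differences was not tested.

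**Figure D5:**
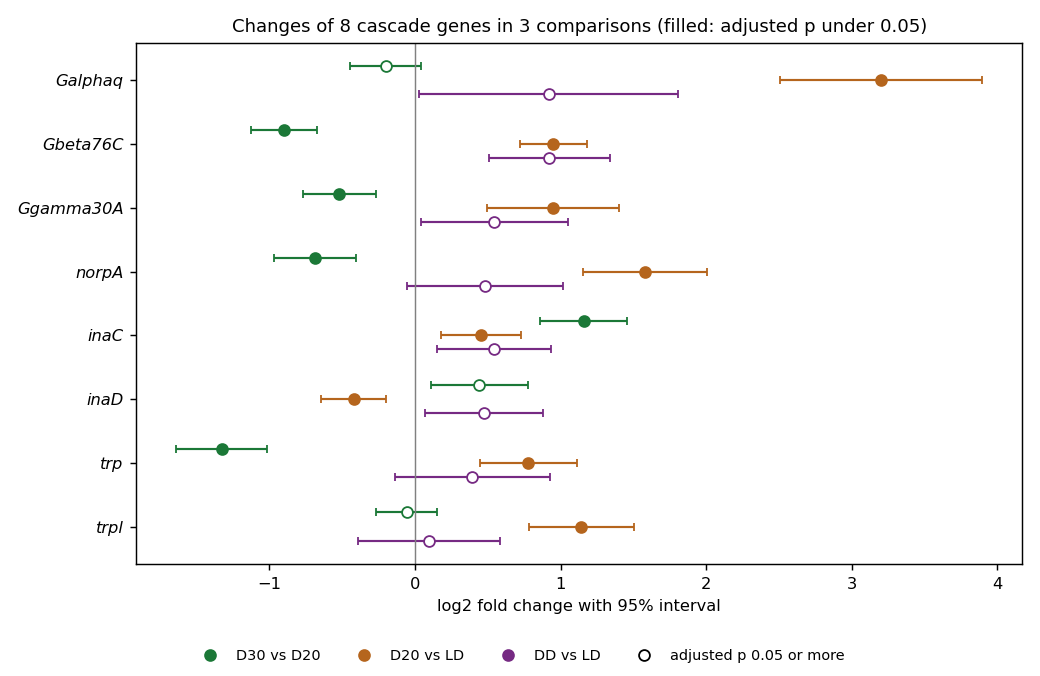
Log2 fold change (x axis, 95% intervals from edgeR) of 8 cascade genes (y axis) in D30 against D20, D20 against LD and DD against LD, with filled points for an adjusted p under 0.05. *Galphaq* is 3.20 higher at D20 than in LD, *trp* is 1.33 lower and *inaC* 1.16 higher at D30 than at D20, and all DD against LD points are open.

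The wider light response and the relatives of the 9 genes were followed from 2 lists. Of 22 other phototransduction genes found, 21 were tested in each comparison. At D60 against D30, 3 were higher and 6 lower (12.9% and 10.7% over all genes), with a median of -0.18 against -0.01 for all genes. The lower ones included *inaE* (-1.13 ± 0.11, adjusted p = 2.63e-05), a diacylglycerol lipase gene, and *Cam* (-0.89 ± 0.13, adjusted p = 0.000596), the calmodulin gene. The higher ones included *rdgB* (0.53 ± 0.08, adjusted p = 0.000825), whose product carries phosphatidylinositol to the plasma membrane. *ninaE* changed by 0.05 ± 0.25 (adjusted p = 0.917). The slope called 1 up and 4 down, with *inaE*, *Cam* and the rhodopsin phosphatase *rdgC* (-0.14 ± 0.04 per 10 days, adjusted p = 0.0147) the clearest falls. *inaE* alone was called at D50 (-0.75 ± 0.15, adjusted p = 0.0352), and none at D40.

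At D30 against D20, 2 of the 21 were higher, among them *inaE* (1.27 ± 0.11), and 7 were lower (11.8% and 9.48% over all genes), among them *inaF-D* (-1.85 ± 0.17) and *Cnx99A* (-1.34 ± 0.15), the gene of the calnexin that helps rhodopsin fold. *ninaE* changed by 0.12 ± 0.23 (adjusted p = 0.754). At D20 against LD (13.8% of all genes higher and 10.1% lower), 10 were higher, among them *inaF-D* (2.74 ± 0.18), *ninaC* (1.56 ± 0.12) and the sodium/calcium exchanger gene *Calx* (1.24 ± 0.11), and 4 were lower, among them *ninaE* (-1.18 ± 0.17, adjusted p = 0.0103). None of the 21 was called at DD against LD, with a median of 0.41 against 0.06 for all genes.

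The relatives of the 9 genes, other G protein subunits, phospholipases C, protein kinases C and TRP channels, were counted in the same way. Of the 23 found, 13 were tested at D60 against D30, 2 were higher and none lower, where 23.6% of all genes were called. They were *cta*, a G alpha gene (0.83, adjusted p = 0.000668, from 257 ± 41.3 to 451 ± 23.2 CPM), and *Plc21C*, a phospholipase C beta gene (0.74, adjusted p = 0.00564, from 249 ± 58.6 to 411 ± 33.0 CPM; SD, n = 3). The same 2 were called by the slope. At D40 and D50 none passed, at D30 against D20 5 of 15 were higher and none lower, and at D20 against LD 1 of 16 was higher and 3 lower, where 21.2% and 23.9% of all genes were called.

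Patterns over the 12 libraries of D30 to D60 were compared by Pearson's r of log2 CPM among 1719 genes with a mean of at least 50 counts. These libraries share ages and the replicate 1 deviations, so r describes this set only. The genes nearest to *Ggamma30A* were *cta* (r = 0.94), *CG17816* (0.93) and *Calx* (0.93). Those nearest to *trp* were *Moe* (0.94), *crb* (0.90) and *chp* (0.89), and those nearest to *trpl* were *FarO* (0.91), *Arc1* (0.90) and *AP-1gamma* (0.90). *Gbeta76C* was nearest to *CG13506* (0.95), *Pak* (0.94) and *l(1)G0289* (0.92). *Galphaq* was nearest to *Ir41a* (0.87), *flw* (0.84) and *fmt* (0.84), and *norpA* to *dom* (0.88), *Bacc* (0.86) and *retn* (0.85). *inaC* was nearest to *5PtaseI* (0.90), *rdgA* (0.85) and *Khc* (0.84), and *inaD* to *kst* (0.90), *faf* (0.89) and *Bx* (0.88). Among the 8 genes themselves, the closest pair was *inaC* and *inaD* (r = 0.79, n = 12), and *Ggamma30A* and *inaD* were the most opposed (r = -0.75, n = 12). *trp* and *trpl* had r = 0.57 (n = 12).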

How the data were processed

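Nuclear RNA-seq counts were analysed for 9 genes in 19 libraries of 7 groups, assigned from the sample titles. The deposited files are 2 tables of raw gene counts, made by the authors without normalization, for D30 to D60 and for D20, LD and DD. The submitters' processing notes name Trimmomatic, STAR, SAMtools and DESeq2 and the builds dm6 and BDGP6. The strand setting and duplicate handling are not given in the sources used here, so genes that share exon bases are uncertain. Of 13929 genes, 13866 matched the Ensembl annotation of BDGP6 (release 115), the source of positions and exon lengths.

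Counts were tested with edgeR 4.0.16 in R 4.3.3 (quasi-likelihood F-test, TMM, default filter with minimum count 10 and minimum total 15), two-sided, with each comparison fitted on its own groups and the slope on the 12 libraries of D30 to D60. Genes with a Benjamini-Hochberg adjusted p under 0.05 over all genes tested were called. SE is the absolute log2 change over the square root of the F statistic. Levels are CPM with TMM factors computed within each table. The members, lists and tests were chosen with earlier results of these data known. All 9 genes are named whatever their values. Of the other phototransduction genes, *ninaE* and up to 3 called genes with the smallest adjusted p per comparison are named, and of the relatives up to 3 called at D60 against D30. The 3 genes nearest in pattern to each member and the clock genes *per*, *tim* and *Clk* are named as well. *Eaat1*, *repo*, *moody*, *Mhc*, *pros*, *Arr1*, *Arr2*, *ninaC* and *rdgA* (as markers) and the inner rhodopsins were named after their values were seen. *Camta* and *Pkcdelta* were listed but not analysed here.

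Alternatives were DESeq2 1.42.0, RLE factors, library size alone, no filter, at least 10 counts in every library, a replicate block, a shared fit and leaving out libraries. Scripts were tested on simulated data. Replicate numbers come from the sample titles. For D40 against D30, libraries of the same number tended to deviate together, with correlations across genes of 0.123 to 0.278 (mean 0.179). Other pairs ran from -0.216 to 0.178 (mean -0.0804). The ranges overlapped, so the numbers may pair the libraries there but this is uncertain. With the block, none of the 8 genes passed there either.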

Additional observations from a re-analysis of the deposited data

How the results depend on the processing

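Leaving out 1 library moved the number of cascade genes called between 3 and 7 for D60 against D30. For the slope it moved between 1 and 4, for D30 against D20 between 5 and 6, and it stayed at 0 for D40 and D50 against D30. Leaving out 1 D20 library gave 2 to 4 for D20 against LD, against 8 with all libraries. Leaving out 1 LD or DD library leaves 1 in that group, and those fits are not included in these numbers. Over all genes, leaving out 1 library called 14.3 to 34.4% for D60 against D30, 11.9 to 19.8% for the slope and 11.8 to 24.6% for D30 against D20. Leaving out 1 D20 library called 5.86 to 7.05% for D20 against LD. Leaving out both D30 and D40 replicate 1 gave 2 genes at D40 (*Gbeta76C* and *norpA*, which turned from 0.0046 to -0.25) and 5 for the slope. In these fits 8.52% of all genes passed at D40 and 19.1% for the slope. Without every replicate 1 library, a choice made after seeing the data, 1 gene passed at D50 (*Ggamma30A*) and 7 at D60. The shares over all genes were 2.84% and 31.1%. The test for any difference among ages called 1, where 11.8% of all genes passed. For DD against LD, DESeq2 called 6, and no filter, at least 10 counts in every library, the replicate block and the shared fit called 1 each, *Gbeta76C*. DESeq2 called 8.35% of all genes there, and those other settings 2.21 to 4.07%. For D20 against LD, library size alone called 5, with *inaC* at -0.0015, and the replicate block called 1, *Galphaq*. These settings called 27.0% and 5.66% of all genes. The block called 5 at D60 against D30 (with *inaD*), 3 for the slope and 5 at D30 against D20. It called 22.5%, 18.3% and 18.1% of all genes there. In the comparisons other than D40 against D30, correlations of the same number averaged between -0.0321 and 0.0199. For the slope they reached 0.235, so whether the numbers pair the libraries is uncertain. In a group of 2 libraries the deviations from the group mean mirror one another, so the correlations cannot decide this for LD and DD. Where a fit leaves 1 library in a group, that library is assumed to vary like the other group. The cause of these moves was not tested.

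Among all genes, the count called at D40 went from 1 to between 1 and 366 over 8 settings and from 57 to between 44 and 233 at D50. It went from 896 to 559 for any difference among ages, from 2 to between 2 and 816 for DD against LD over 7 settings, and from 1854 to 3172 (DESeq2) or 440 (block) for D20 against LD. Leaving out libraries gave 0 to 15 at D40, 21 to 78 at D50, 612 to 1492 at D60, 894 to 1769 at D30 against D20, 44 to 2241 at DD against LD and 482 to 6845 at D20 against LD. Of the other values of the cascade genes, 655 kept direction and side of the threshold, 40 gained a call and 40 lost one. In 41 the sign turned, 39 of them with no call in either fit. With library size alone the D40 changes turned to 0.0055 for *Galphaq*, 0.022 for *Ggamma30A*, 0.041 for *inaC* and 0.027 for *trpl*, and *trpl* at DD against LD turned to -0.17. With at least 10 counts in every library the D40 changes turned to 0.0062 for *Ggamma30A*, 0.022 for *inaC* and 0.012 for *trpl*. *norpA* at D40 turned to -0.0024 with DESeq2, -0.0040 with RLE factors, -0.0053 with no filter and -0.0051 with the shared fit, *inaC* at D40 to 0.017 with the block, *inaC* at D50 to -0.0046 with no filter, *inaD* at D40 to -0.18 without both replicate 1 libraries, and *Galphaq* and *inaC* at D50 to 0.047 and -0.11 without every replicate 1 library. Leaving out 1 library gave, at D40, -0.21 to 0.10 for *Galphaq*, -0.22 to 0.12 for *Ggamma30A*, -0.13 to 0.088 for *norpA*, -0.14 to 0.095 for *inaC*, -0.17 to 0.16 for *inaD* and -0.20 to 0.10 for *trpl*. At D50 it gave -0.36 to 0.082 for *Galphaq*, -0.22 to 0.054 for *norpA*, -0.13 to 0.13 for *inaC* and -0.29 to 0.058 for *inaD*, and -0.14 to 0.0082 for *trpl* at D30 against D20. The D60 minus D30 difference of the *trp* to *trpl* ratio ran from -0.042 to 0.34. Depth limits *Trpgamma*, which could not be tested, and LD and DD have 2 libraries each.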
